A study of Danio rerio with 5 samples.

Results

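Persistent circular RNAs (circRNAs) are those found at nearly every stage of early zebrafish development that was sequenced. They were chosen by their own read values: a circRNA was taken if it had back-splice junction reads in at least 4 of 5 libraries. Of 9559 circRNAs listed in any library, 286 met this rule, 121 of them listed in all 5 libraries and 165 in 4. The libraries were made from ribosomal RNA-depleted total RNA of whole wild-type embryos of the strain labelled Tubingenz, with 1 library per stage. In hours post fertilization (hpf), the blastula was taken at 4.5, the gastrula at 8 and the segmentation stage at 24 hpf, and the embryos of 48 and 72 hpf carry the labels throat and incubation. No stage had a replicate, so no difference between stages has a test, and every interval covers counting error only.

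A circRNA forms when a splice donor is joined back to an acceptor upstream of it, and the closed ring has no free end for exonucleases to attack. Such RNAs are known for outlasting the linear transcripts of the same genes, and in many animals they accumulate in neural tissue. The early fish embryo runs on RNA laid down by the mother until its own genome is switched on during the blastula period. A junction seen at all stages can therefore come from stored maternal RNA, from embryonic transcription or from both, which these libraries do not separate. No file pairs a circRNA with a gene and no genome was used, so members are named by the chromosome, start and end of the deposited table, with no host gene and no sequence. All such coordinates are as deposited, and the sources used here name no genome build for them.

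Levels are given on 2 scales. SRPBM is the authors' value per library depth, and reads per 10000 junction reads set each circRNA against all circRNA signal of its library. The scales differ most at 24 hpf, where the library held 9563 junction reads, against 15850 to 24580 in the others. That is 148 junction reads per megaunit of depth at 24 hpf, against 242 to 349 at the other stages. Depth here is the denominator behind SRPBM (reads over SRPBM, times 1e+09) divided by 150, and a megaunit is 1e+06 of the resulting units. The lowest count listed in any library was 2 reads, and a circRNA that is not listed is taken here to have had fewer, which the files do not state.

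The members were few among the listed circRNAs but held a large part of the junction reads, which follows in part from the rule. They made up 8.27%, 8.47%, 14.8%, 9.89% and 11.1% of the circRNAs listed at 4.5, 8, 24, 48 and 72 hpf. Of the junction reads of the early libraries, members held 34.6% in the blastula (95% Clopper-Pearson interval 33.9 to 35.2) and 34.4% in the gastrula (33.8 to 35.0). In the segmentation library they held 36.9% (35.9 to 37.9), and in the later libraries 23.8% at 48 hpf (23.1 to 24.5) and 27.4% (26.8 to 28.0) in the oldest embryos. Members' share was highest at 24 hpf, in the library with fewest junction reads, and lowest at 48 hpf. A single circRNA of scaffold KN150127.1 carried much of the 8 hpf share and part of the 72 hpf share. Without that scaffold, in members and total alike, the shares were 34.5%, 25.2%, 36.9%, 25.6% and 22.8% from 4.5 to 72 hpf, so the lowest share was then at 72 hpf.

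Members were less prominent among the most abundant circRNAs of the later libraries. Of the 10 circRNAs with most reads, the members numbered 8, 7, 6, 3 and 1 from 4.5 to 72 hpf. Of the 100 with most reads, 65, 60, 65, 58 and 51 were members in the same order of stages. The members' median level where listed was 1.01, 0.610, 0.515, 0.814 and 0.856 SRPBM from 4.5 to 72 hpf. Per 10000 junction reads the medians were 4.90, 2.85, 5.23, 5.05 and 3.68, so 24 hpf was lowest on the first scale and highest on the second.

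**Figure D1:**
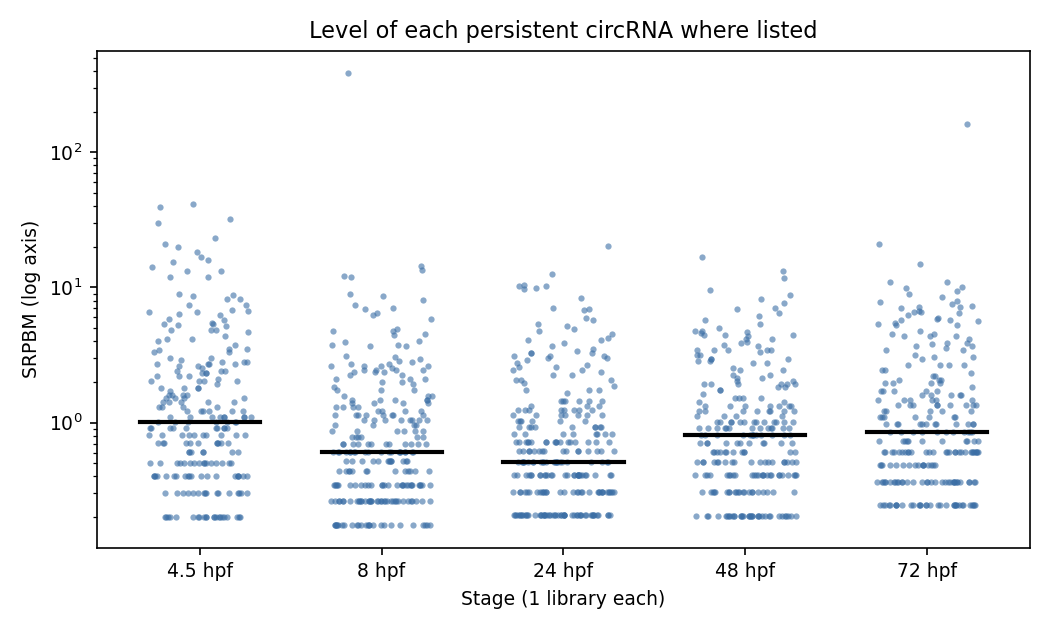
Level in SRPBM (log axis) of each persistent circRNA in each library that lists it, with 1 point per circRNA and a bar at the median of the points. The medians lie between 0.515 and 1.01 SRPBM, and the single points above 100 SRPBM at 8 and 72 hpf are the same circRNA of scaffold KN150127.1.

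The rule sets a low bar, and many members only just passed it. The 286 members had between 9 and 5865 reads over the 5 libraries, with a median of 33. Of the 165 listed in 4 libraries, 87 had only 2 reads in at least 1 of them. A total of 9 was that of, among others, chromosome 15, 5631939 to 5632146, with 3, 2, 2 and 2 reads from 4.5 to 48 hpf and none listed at 72 hpf. Just outside the rule lay 426 circRNAs listed in 3 libraries, with a median total of 14 reads against 24 for those listed in 4. Some of these were abundant. Chromosome 5, 31666036 to 31700665, had 570 reads at 24 to 72 hpf, and chromosome 8, 21058484 to 21068075, had 67, 22 and 114 reads at 8, 24 and 72 hpf and was not listed at 4.5 and 48 hpf.

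Per depth, the blastula was the stage of highest level for the largest number of members, followed by 72 hpf. The counts were 109, 31, 22, 52 and 72 from 4.5 to 72 hpf. Per total junction reads they were 85, 19, 103, 50 and 29, which puts 24 hpf first. Trimmed mean of M-values (TMM) scaling gave 74, 52, 48, 52 and 60. Its factors rest on circRNAs with reads in both libraries compared, members among them, so it is not an independent scale for the members. The stage was the same per depth and per total for 191 of 286 members (66.8%), and 34 of the 72 members highest at 72 hpf per depth were highest at 24 hpf per total.

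For most members the highest stage could not be told from the next by counting error. Per depth, the 95% interval of the ratio of the highest to the next highest level excluded 1 for 64 members, of which 37, 4, 5, 4 and 14 were highest at 4.5, 8, 24, 48 and 72 hpf. For 32 members the stage was the same and clear of the next both per depth and per total, and 21 of these were highest at 4.5 hpf. Because the highest value was picked out of 5, these intervals describe the gap and are no test.

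**Figure D2:**
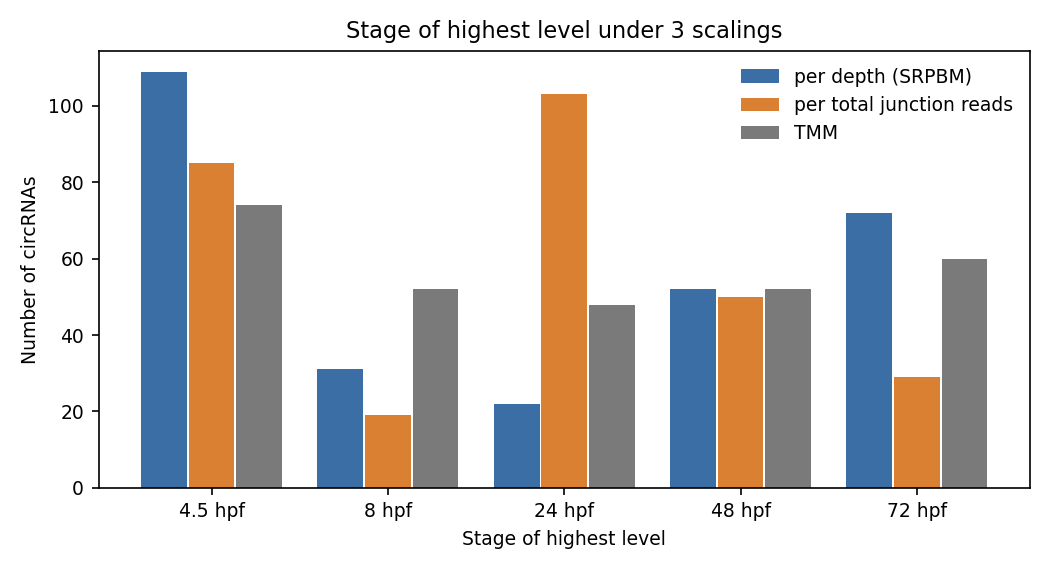
Number of the 286 members whose highest level falls at each stage, with 1 bar for each scaling. The bars for 4.5 hpf are 109, 85 and 74, while those for 24 hpf are 22, 103 and 48, the stage that moves most with the scaling.

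The 3 members with the highest blastula levels were 2 back-splices over 100 kb and a short one. On chromosome 2, the circRNA spanning 57502503 to 57945198 had 412, 51, 19, 27 and 49 reads from 4.5 to 72 hpf, or 41.6, 4.45, 1.96, 2.75 and 5.99 SRPBM. Its blastula level was 6.94-fold the next highest (5.15 to 9.54), and 7.84-fold per total junction reads (5.82 to 10.8). Chromosome 16, 32233692 to 32234165, a span of 473 bp, had 389, 16, 36, 13 and 5 reads. Its blastula level stood alone, 10.6-fold above the next (7.52 to 15.4). Chromosome 16, 55075739 to 55381521, had 318, 93, 58, 87 and 89 reads, 2.95-fold above the next (2.32 to 3.77), and it stayed at 5.97 SRPBM or more at every stage. Chromosome 1, 53451167 to 53519640, among the 3 members with most reads at 8 hpf, was also highest in the blastula, with 180, 155, 81, 47 and 59 reads.

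Few members were highest in the gastrula. On scaffold KN150127.1, 3657 to 4045, reads were 22, 4398, 4, 129 and 1312 from 4.5 to 72 hpf, so this circRNA was high at 8 and 72 hpf and lowest at 24 hpf. It held 1789 of every 10000 junction reads at 8 hpf and 689 at 72 hpf. Chromosome 17, 52534232 to 52538743, had 88, 102, 25, 15 and 6 reads and stood at 8.89 SRPBM at both 4.5 and 8 hpf. Per total junction reads its blastula level was slightly the higher. Chromosome 17, 3349985 to 3350375, had 48, 81, 7, 2 and 4 reads. Both of these chromosome 17 circRNAs were early. Per depth, the gastrula level of the first could not be told from its blastula level (1.00-fold, 0.745 to 1.35). That of the second was 1.46-fold its blastula level, with an interval that only just excluded 1 (1.01 to 2.13).

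A small group had its highest level at 24 hpf on both scales. Chromosome 11, 43496943 to 43559737, had 57, 72, 198, 68 and 83 reads from 4.5 to 72 hpf. Its 24 hpf level was 2.01-fold the next per depth (1.55 to 2.63) and 4.75-fold per total (3.66 to 6.21). Chromosome 15, 47009568 to 47014874, had 73, 42, 123, 69 and 77 reads, and chromosome 13, 51515225 to 51523661, had 73, 57, 100, 38 and 43. For both the gap to the next stage per depth was close to 1, at 1.34-fold (1.00 to 1.81) and 1.40-fold (1.02 to 1.92), and per total it was 2.95-fold and 2.92-fold.

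The 3 highest levels among members that peaked at 48 hpf could not be told from their 72 hpf levels per depth by counting error. Per total junction reads the 48 hpf level was higher than that at 72 hpf for all 3, and the interval of this ratio excluded 1 for 2 of these 3. Chromosome 13, 51311159 to 51684462, had 27, 9, 38, 81 and 65 reads from 4.5 to 72 hpf, with its 48 hpf level 1.04-fold that at 72 hpf per depth (0.739 to 1.46) and 1.5-fold per total (1.07 to 2.11). Per total its next highest stage was 24 hpf, at 0.778-fold the 48 hpf level (0.514 to 1.16), so these stages could not be told apart by counting error. Chromosome 10, 44527274 to 44542314, was not listed at 4.5 hpf and had 6, 18, 64 and 53 reads from 8 hpf on. Its ratio of 48 to 72 hpf was 1.00 per depth (0.687 to 1.47) and 1.45 per total (0.992 to 2.13). Chromosome 16, 6962637 to 6966446, likewise was not listed at 4.5 hpf and had 5, 13, 53 and 32 reads. Its ratio of 48 to 72 hpf was 1.38 per depth (0.872 to 2.21) and 1.99 per total (1.26 to 3.19). Chromosome 8, 16656395 to 16668464, had 2, 5, 95, 94 and 121 reads, low in the first 2 libraries and high in the last 3. Its level was 0.202 SRPBM at 4.5 hpf and 14.8 at 72 hpf, highest at 72 hpf per depth and at 24 hpf per total.

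Within a member listed throughout, the highest SRPBM stood a median of 4.70-fold above the lowest over the 121 such members, with quartiles of 3.30 and 8.99. Per total junction reads the median was 5.36 and with TMM 4.40. For 98 of the 121 the 95% interval of this ratio excluded 1 per depth, which is read as a description, since both ends were picked for their values. Ratios were 10 or more for 26 members and under 2 for 5. Among the 78 with at least 50 reads in total the median was 6.59.

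The 5 narrowest ranges among members with at least 50 reads were those of 1 abundant circRNA and 4 of moderate level. Chromosome 10, 1457132 to 1492915, had 24, 20, 17, 15 and 19 reads from 4.5 to 72 hpf, a ratio of 1.59 (0.80 to 3.26) that counting error alone spans. Chromosome 11, 44020549 to 44026831, with 157, 164, 100, 116 and 81 reads, was the abundant one, at 9.91 to 15.9 SRPBM and between 42.6 and 105 per 10000 junction reads. Chromosome 13, 51518779 to 51663458, had 66, 52, 44, 44 and 30 reads, a ratio of 1.82 (1.16 to 2.90). The other 2 were chromosome 3, 6583654 to 6602155, at 28, 34, 52, 29 and 26 reads, and chromosome 14, 51927098 to 51935036, at 22, 32, 32, 29 and 37. All 5 ratios were larger per total junction reads, at 2.18, 2.46, 2.92, 3.98 and 3.10.

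The widest ranges took several shapes. The scaffold KN150127.1 circRNA had a ratio of 931 (363 to 3417) between 8 and 24 hpf. Chromosome 8, 16656395 to 16668464, at a ratio of 73.3 (19.9 to 612), was late. Chromosome 16, 32233692 to 32234165, at 64.2 (27.3 to 199), chromosome 7, 15515797 to 15533024, at 63.6 (21.5 to 310) with 231, 23, 10, 9 and 3 reads, and chromosome 17, 3349985 to 3350375, at 34.7 (9.30 to 291), were early. The lowest counts behind these ratios were 2 to 5 reads, which sets the width of the intervals.

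**Figure D3:**
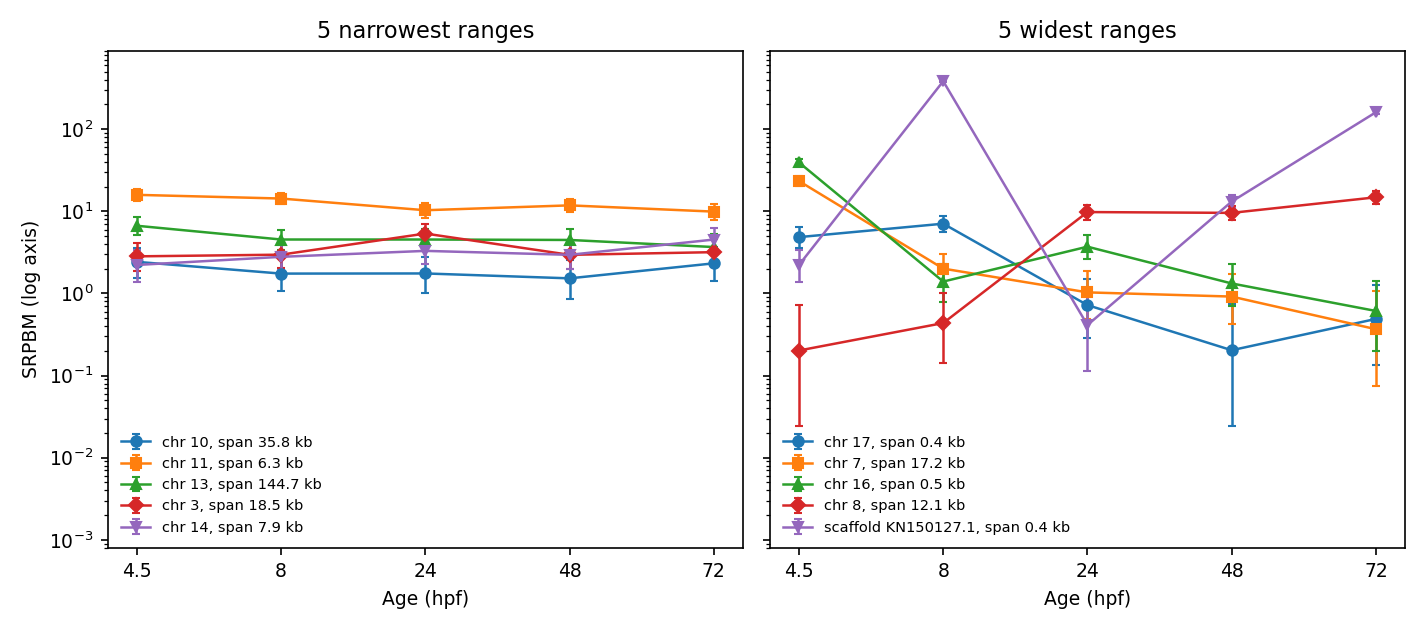
SRPBM (log axis) by age for the 5 narrowest (left) and 5 widest (right) ranges among members listed in all 5 libraries with at least 50 reads, with exact 95% Poisson intervals as error bars. On the left each circRNA's highest level is 1.59 to 2.04 times its lowest, and on the right the scaffold circRNA runs between 0.412 and 383 SRPBM.

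Among the 165 members listed in 4 libraries, the blastula was missing most often and 24 hpf least often. From 4.5 to 72 hpf, the numbers missing that stage were 52, 28, 15, 34 and 36. The library that lacked fewest was thus the one with fewest junction reads, while the blastula library held 20410. Counting a stage only at 5 reads or more gave 44 circRNAs with exactly 1 stage missing, and then 25% of them lacked 24 hpf, against 9.09% by listing alone.

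Gaps differed in how many reads were due. At the mean level of the other 4 libraries per depth, the missing library would have held 3 or fewer reads for 19 of the 165 members and 10 or more for 34. Those 34 comprised 13, 8, 2, 7 and 4 members missing at 4.5, 8, 24, 48 and 72 hpf. Per total junction reads it was 3 or fewer for 20 members and 10 or more for 39, of which 14, 11, 1, 5 and 8 were missing at these stages. No missing junction was replaced by one with both ends within 10 bp in the library concerned. For 13 members that library listed a circRNA with the same start or the same end, and for 29 it listed one overlapping the member.

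Of the 3 members missing at 4.5 hpf with most reads, 2 were late and 1 was highest in the gastrula per depth. Chromosome 12, 47647969 to 47670672, had 17, 40, 60 and 73 reads from 8 to 72 hpf. With 3 reads set for the library that does not list it, its 72 hpf level per depth was at least 29.5-fold its blastula level. Per total junction reads it was highest at 24 hpf, at least 28.5-fold above the blastula. On the same setting, chromosome 10, 44527274 to 44542314, was at least 21.5-fold above its blastula level at 48 hpf. Chromosome 23, 36354198 to 36832487, had 55, 34, 34 and 14 reads from 8 to 72 hpf, highest at 8 hpf per depth and at 24 hpf per total. Each bound assumes that an unlisted junction lacked reads and was not dropped by a filter of another kind.

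The 3 members missing at 8 hpf with most reads were low before it and high after it. Chromosome 23, 1337593 to 1393443, had 10 reads at 4.5 hpf, none listed at 8 hpf, and 29, 33 and 51 from 24 hpf. Chromosome 6, 2595911 to 2996003, had 4 reads, none listed, then 30, 39 and 43. Chromosome 15, 43184266 to 43507359, had 3 reads, none listed, then 16, 28 and 48. At their mean level over the other 4 libraries, 37.5, 35.4 and 29.0 reads would have been due at 8 hpf. That mean rests mostly on the libraries from 24 hpf on, and at the level of the 4.5 hpf library, with its 10, 4 and 3 reads, far fewer would have been due. Their spans were 55850, 400092 and 323093 bp.

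Of the members with a gap at 24 hpf, 1 stood out by its reads. Chromosome 15, 46764879 to 46940981, had 197 and 31 reads at 4.5 and 8 hpf, was not listed at 24 hpf, and had 17 and 58 at 48 and 72 hpf. Its mean level elsewhere would give 74.7 reads per depth at 24 hpf, or 36.3 per total junction reads, while the 24 hpf library listed 3 reads on a junction with the same end, 46934986 to 46940981. The next 2, chromosome 7, 72992602 to 72994077, with 26, 3, 7 and 10 reads at the other stages, and chromosome 21, 8393705 to 8394005, with 8, 18, 8 and 5, had 46 and 39 reads in all, against 303.

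The 3 members missing at 48 hpf with most reads were all of chromosome 20. There, 33653538 to 33753413 had 41, 43, 10 and 36 reads at 4.5, 8, 24 and 72 hpf. The circRNA at 20582747 to 20583723 had 43, 35, 8 and 2, and that at 42425731 to 42444169 had 30, 13, 12 and 11. The first had 36 reads again at 72 hpf, while the second had 2. The 3 members missing at 72 hpf with most reads were all highest in the first 2 libraries. Chromosome 1, 11651792 to 11654987, had 52, 42, 9 and 3 reads from 4.5 to 48 hpf, chromosome 24, 33635823 to 33645474, had 35, 27, 5 and 4, and chromosome 10, 40966768 to 40981109, had 20, 28, 4 and 9.

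Steps between consecutive stages were read as ratios of reads per depth, later over earlier, for members with at least 10 reads over both libraries, and a ratio of 2 or more in either direction was called. The rule required reads in most libraries and so limits these ratios, and nothing is read from the members' shares against those of all circRNAs. Neighbouring steps also share a library. From blastula to gastrula, 16 of 176 members tested were called higher at 8 hpf and 84 lower. Of all 545 circRNAs tested, 20.4% were higher and 50.3% lower. With TMM scaling, which moves this step by 0.54 on the log2 scale, 27 members were higher and 52 lower.

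A pair of circRNAs with the same start on chromosome 23 differed in direction at this step. The scaffold KN150127.1 circRNA reached 173-fold its blastula level at 8 hpf (114 to 276). Chromosome 22, 91571 to 115726, had 99 reads at 8 hpf against 11 at 4.5 hpf, 7.77-fold higher (4.16 to 16.1). Chromosome 23, 36354198 to 36832487, with 55 reads at 8 hpf and none listed at 4.5 hpf, was at least 15.8-fold higher. The circRNA with the same start and an end at 36824234 had 13 reads at 8 hpf against 140 at 4.5 hpf, 12.5-fold lower (7.06 to 24.0). Chromosome 16, 32233692 to 32234165, was 28.2-fold lower (17.1 to 49.8) and chromosome 7, 15515797 to 15533024, 11.6-fold lower (7.57 to 18.7).

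From gastrula to segmentation the members split evenly per depth, 46 higher and 50 lower of 175, where 24.1% of all 386 circRNAs tested were higher and 44.6% lower. Per total junction reads, which moves this step by 1.12 on the log2 scale, 84 members were higher and 17 lower. The named members kept their direction on that scale. Chromosome 8, 16656395 to 16668464, had 95 reads at 24 hpf against 5 at 8 hpf, 22.4-fold higher (9.29 to 70.7). The members skipped at 8 hpf on chromosomes 6 and 23, starting at 2595911 and 1337593, stood at least 11.8-fold and 11.4-fold above that library. Lower at 24 hpf were the scaffold KN150127.1 circRNA, chromosome 17, 3349985 to 3350375, with 7 reads at 24 hpf against 81 at 8 hpf (9.79-fold, 4.54 to 25.1), and chromosome 15, 46764879 to 46940981, by at least 8.75-fold.

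From 24 to 48 hpf, 46 of 162 members were higher and 29 lower per depth, where 43.8% of all 347 circRNAs tested were higher and 22.2% lower. Per total, which moves the step by -0.71 on the log2 scale, 24 members were higher and 52 lower, and with TMM, at -0.28, 36 were higher and 38 lower. Chromosome 3, 38531672 to 38532264, had 45 reads at 48 hpf against 2 at 24 hpf, 22.2-fold higher (5.81 to 189). The scaffold KN150127.1 circRNA was 31.9-fold higher (12.1 to 119), and chromosome 15, 46764879 to 46940981, returned at a level at least 5.60-fold higher. Chromosome 12, 47022122 to 47162787, had 5 reads at 48 hpf against 28 at 24 hpf and was 5.67-fold lower (2.16 to 18.8). Chromosome 11, 43496943 to 43559737, was 2.95-fold lower (2.23 to 3.94) and chromosome 22, 91571 to 115726, 2.89-fold lower (1.94 to 4.40).

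From 48 to 72 hpf, 34 of 161 members were higher and 23 lower per depth, where 34.3% of all 426 circRNAs tested were higher and 22.1% lower. Per total, which moves the step by -0.53 on the log2 scale, 12 members were higher and 36 lower. The scaffold KN150127.1 circRNA was again higher, by 12.2-fold (10.2 to 14.8). Chromosome 14, 3014852 to 3094752, had 54 reads at 72 hpf against 8 at 48 hpf, 8.11-fold higher (3.84 to 19.7), and chromosome 20, 33653538 to 33753413, was at least 14.4-fold higher. Lower were scaffold KN150122.1, 30659 to 34178, with 9 reads at 72 hpf and 44 at 48 hpf (4.07-fold, 1.96 to 9.47), chromosome 23, 2425381 to 2435690 (4.99-fold, 1.46 to 26.5), and chromosome 9, 3492685 to 3493894 (2.85-fold, 1.19 to 7.84).

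Some members overlap in the genome, and shares within such a group can be compared across libraries, since a ratio within 1 library does not depend on depth or scaling. The 9 groups of overlapping members held 19 of the 286. On chromosome 23, a pair of very long circRNAs shares the start at 36354198 and differs by 8253 bp at the end. At 4.5 hpf all 140 listed reads of the pair belonged to the form ending at 36824234. In the gastrula that form held 19.1% of the pair's reads (10.6 to 30.5) and in the segmentation library 40.4% (27.6 to 54.2). Its share was 30.6% at 48 hpf (18.3 to 45.4), then 58.8% in the oldest embryos (40.7 to 75.4). The balance between both ends thus differed between the blastula and every later library beyond counting error.

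On chromosome 25 the balance was steady. The circRNA at 32356968 to 32384589 had 154, 55, 102, 165 and 171 reads from 4.5 to 72 hpf, and 32381067 to 32393794, which overlaps its last part, had 86, 28, 66, 76 and 90. The first held 64.2%, 66.3%, 60.7%, 68.5% and 65.5% of the pair's reads, with intervals that all overlap. Both circRNAs were lowest at 8 hpf, at 4.79 and 2.44 SRPBM, and highest at 72 hpf per depth, at 20.9 and 11 SRPBM.

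On chromosome 13, 3 members lie within 51311159 to 51684462. The longest, which covers the whole stretch, held 16.3% of the group's reads in the blastula (11 to 22.8), 7.63% in the gastrula (3.55 to 14) and 20.9% in the segmentation library (15.2 to 27.5). In the later embryos it held 49.7% (41.8 to 57.6) and 47.1% (38.6 to 55.8) at 48 and 72 hpf. The shortest, 51515225 to 51523661, held 44.0%, 48.3% and 54.9% up to 24 hpf and 23.3% and 31.2% at 48 and 72 hpf. The third, 51518779 to 51663458, held 39.8%, 44.1%, 24.2%, 27% and 21.7% from 4.5 to 72 hpf, within counting error of the shortest in both early libraries and below it at 24 hpf. The longest was below the shortest at 24 hpf and above it at 48 hpf, beyond counting error in both libraries.

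The remaining pairs with a common end or start gave fewer reads. On chromosome 14, the longer circRNA, 34162408 to 34171543, held 23.9%, 16.7%, 22.9%, 38.5% and 48.0% of the reads it shares with 34166942 to 34171543, with wide intervals (14.3 to 35.9 at 4.5 hpf and 27.8 to 68.7 at 72 hpf). On chromosome 2, the start at 58761121 had ends 26 bp apart. The nearer end, 58761758, held 21.6% of the reads (11.3 to 35.3) in the youngest embryos and 7.84% (2.18 to 18.9) in the oldest, intervals that overlap. The pair starting at 56144076 of chromosome 2 had 2 to 14 reads a library, and that ending at 5632146 of chromosome 15 had 12 at most, too few to compare.

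**Figure D4:**
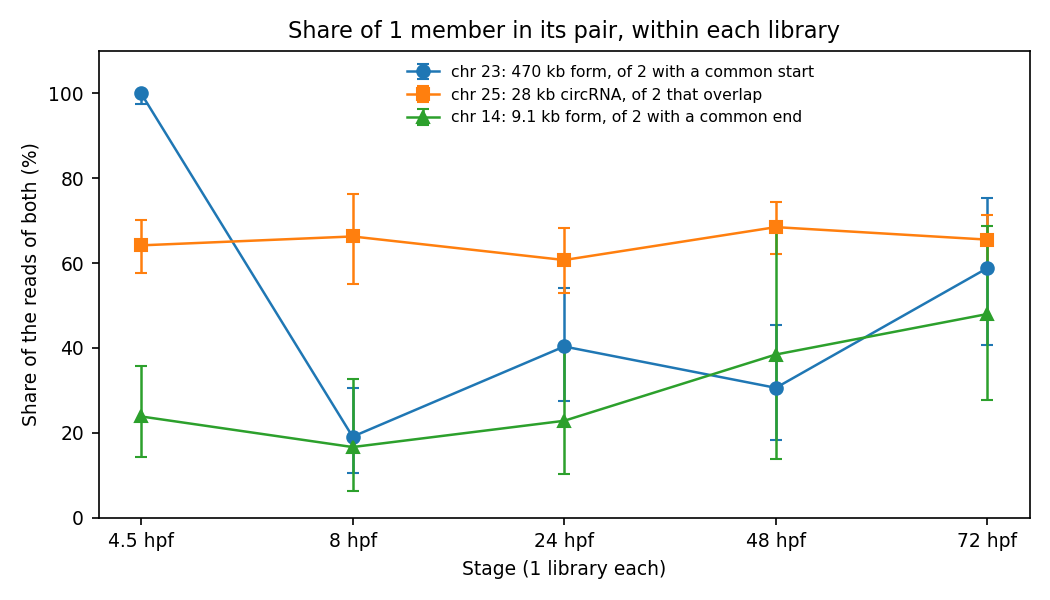
Share (%) of the reads of a pair of overlapping members that belongs to 1 of them, within each library, for 3 pairs on chromosomes 23, 25 and 14, with exact 95% Clopper-Pearson intervals. The chromosome 25 share stays between 60.7% and 68.5%, while the chromosome 23 share is 100% at 4.5 hpf and 19.1% at 8 hpf.

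The members' genomic spans, introns included, had a median of 5669.5 bp, against 6265 bp for the circRNAs listed in 1 to 3 libraries. The median was 6931 bp for members listed in all 5 libraries and 5227 bp for those listed in 4, so members were not uniformly shorter. With at least 20 reads in total the medians were 6083 and 6364 bp. Members were more often over 100 kb and less often between 10 and 100 kb. Of the 286, 25 (8.74%) spanned over 100 kb, against 3.33% of the 9273 others. With at least 20 reads it was 11.4% of 219 members against 4.73% of 275 others. Among members listed in all 5 libraries it was 17 of 121 (14%), but among those listed in 4 it was only 8 of 165 (4.85%). Between 10 and 100 kb lay 24.5% of members, against 34.1% of the others, and 25.1% against 36.7% with at least 20 reads. All spans of 10 kb or more together made up 33.2% of members, against 37.4% of the others. Spans under 500 bp made up 27 members (9.44%), against 10.2% of the others.

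The longest member spans were both forms of chromosome 23 (478289 and 470036 bp) and chromosome 17, 640948 to 1093842 (452894 bp), with 46, 4, 9, 4 and 8 reads from 4.5 to 72 hpf. The shortest were chromosome 8, 53551917 to 53552021 (104 bp), with 20, 3, 7 and 8 reads and none listed at 48 hpf, chromosome 17, 50188956 to 50189117 (161 bp), with 9, 13, 2, 10 and 16, and chromosome 15, 5631939 to 5632146 (207 bp). Long spans weighed most in the blastula. The 25 over 100 kb held 24.5% of the members' reads at 4.5 hpf, then 6.29%, 16.0%, 15.6% and 14.2% from 8 to 72 hpf. Without the scaffold KN150127.1 circRNA the shares were 24.5%, 13.1%, 16.0%, 16.2% and 19.0% from 4.5 to 72 hpf, so the 8 hpf value rests largely on it. Their summed level was 174, 46.4, 58.0, 59.9 and 90.9 SRPBM from 4.5 to 72 hpf, and 16 of the 25 were highest at 4.5 hpf per depth and 13 per total.

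Members lay near chromosome ends more often than the other circRNAs did. Position was taken along chromosomes 1 to 25, each measured up to the highest end listed on it. In the first and last 10% lay 117 of 280 members (41.8%), against 2349 of 9122 others (25.8%). With at least 20 reads in total it was 46.9% of 213 members against 36.2% of 265 others. The share followed the number of libraries, at 52.5%, 34.0%, 29.6%, 27.6% and 25.3% for circRNAs listed in 5, 4, 3, 2 and 1. Median total reads fell in the same order, at 77, 24, 14, 7 and 3, and reads were matched only by the minimum of 20. Long spans were the most extreme, with 21 of 25 members over 100 kb in these outer stretches (84%), against 34.3% of the other circRNAs over 100 kb. For spans up to 100 kb it was 37.6% of members against 25.5% of the others. Neighbouring circRNAs can share a gene and are not independent, so no test was made.

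**Figure D5:**
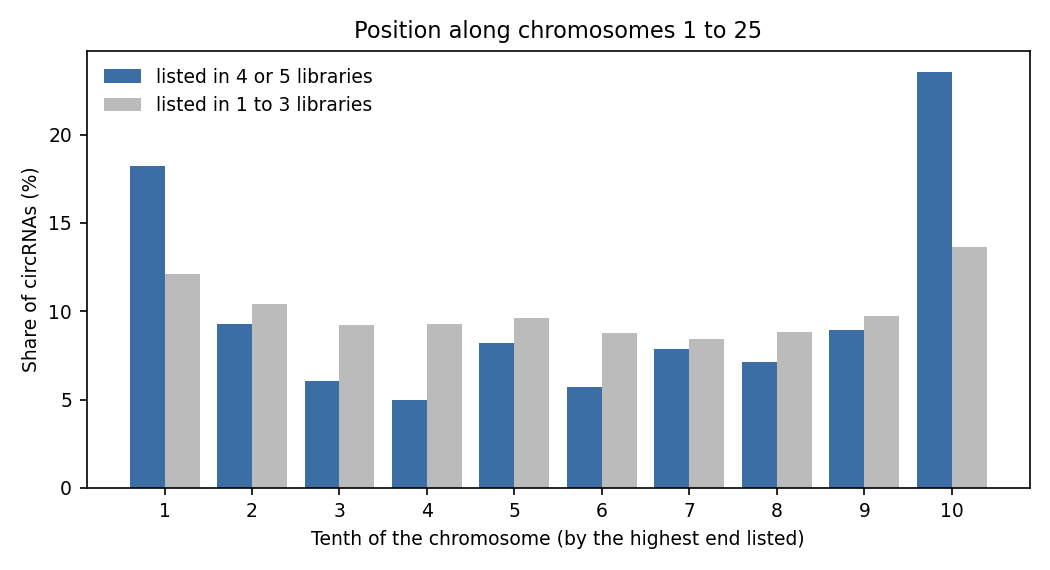
Share (%) of circRNAs in each 10% of chromosome length, for the 280 members and the 9122 other circRNAs on chromosomes 1 to 25. Members stand at 18.2% in the first 10% and 23.6% in the last, against 12.1% and 13.6% of the others.

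Unplaced scaffolds held 6 members, 1 each. Apart from the KN150127.1 circRNA, scaffold KN149858.1, 2872 to 5870, was listed throughout, with 65, 27, 41, 41 and 69 reads from 4.5 to 72 hpf, and so was KN149877.1, 18348 to 23161, with 9, 6, 4, 9 and 8. Scaffold KN150122.1, 30659 to 34178, was not listed at 4.5 hpf and had 3, 14, 44 and 9 reads, clear at 48 hpf on both scales (3.10-fold the next per depth, 1.67 to 6.13). Scaffold KN150279.1, 200 to 8941, with 8, 4, 21 and 32 reads from 8 hpf on, was late, and KN149830.1, 6306 to 6720, with 7, 26, 5 and 7 reads at the stages other than 48 hpf, was highest in the gastrula.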

How the data were processed

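Strand-specific, ribosomal RNA-depleted libraries of whole embryos were sequenced, with 1 library per stage. The deposited tables give, per circRNA, the junction read counts, which are whole numbers that were not normalized, and a score named SRPBM in the file headers, which the authors scaled to library depth. Within a library SRPBM was the count times 1 constant. Per the submitters' processing notes the tools included BWA 0.7.5a-r405 and, separately, edgeR 3.12.1, with no role stated. Which caller found the circRNAs was not stated. Depths were 66.0, 76.5, 64.7, 65.5 and 54.5 megaunits from 4.5 to 72 hpf.

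Members, lists and added alternatives were chosen with earlier results of these data known. Ratios carry exact conditional 95% Poisson intervals and shares exact Clopper-Pearson intervals. The labels name no molecular identifiers, so reads may be copies of 1 molecule, and both kinds of interval cover counting error only. A library that does not list a circRNA was set at 3 reads for bounds and 1 for ranking. Scaling factors of the TMM kind were computed with edgeR 4.0.16 under R 4.3.3, and the rest used Python 3.11.15, numpy 2.4.6, pandas 2.3.3, scipy 1.17.1 and matplotlib 3.10.9. Of the calculations, the ratios between consecutive stages, their intervals and the calls were tested on simulated data. That test covered whether intervals held the true ratio and whether changes of 4-fold were called. How often an unchanged circRNA is called was not measured.

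Named circRNAs were the 3 with most reads per library, the 3 highest per peak stage, the 3 with most reads per missing stage, the 5 narrowest and 5 widest ranges, the 3 leading members per step and direction, the 3 longest and shortest spans, and those on scaffolds or with shared ends. The circRNAs just outside the rule, and those overlapping without a shared end, were chosen after their values were seen.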

Additional observations from a re-analysis of the deposited data

How the results depend on the processing

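Of 102 alternative values, 51 kept their main value within 1.5 times (counts and shares of members) or within its 95% interval (shares of reads, medians and position). Position alternatives were added after the data were seen. Counting a stage only at 5 reads or more left 107 members, and the missing stage was then 24 hpf for 25% of those with 1 gap, 48 hpf for 11.4% and 72 hpf for 13.6%. Joining ends within 10 bp left 286 members. The share of members highest at a stage moved per total junction reads at 8, 24 and 72 hpf (6.64%, 36.0% and 10.1%, against 10.8%, 7.69% and 25.2%), with TMM at 8 and 24 hpf (18.2% and 16.8%), per total without scaffold KN150127.1 at 4.5, 24 and 72 hpf (23.8%, 30.4% and 10.8%), and among members clear of the next stage at 4.5, 8 and 48 hpf (57.8%, 6.25% and 6.25%). The median range was 6.59 with at least 50 reads. The share of reads without the scaffold was 25.2%, 25.6% and 22.8% at 8, 48 and 72 hpf, and with spans up to 100 kb it was 29.3%, 33.5%, 33.7%, 21.3% and 25.1% from 4.5 to 72 hpf. Of members listed in all 5 libraries, 52.5% lay in the first or last 10% of their chromosomes. At 8 over 4.5 hpf the members called higher and lower numbered 27 and 52 with TMM, 5 and 54 with at least 20 reads, and 8 and 33 at a fold of 4. At 24 over 8 hpf they were 84 and 17 per total, 23 and 26 with at least 20 reads, and 13 and 18 at a fold of 4. At 48 over 24 hpf they were 24 and 52 per total, 22 and 15 with at least 20 reads, and 10 and 6 at a fold of 4, with 30 higher by the interval. At 72 over 48 hpf they were 12 and 36 per total, 19 and 8 with at least 20 reads, and 10 and 4 at a fold of 4, with 9 lower by the interval. The cause of these shifts was not tested, apart from fewer members passing a stricter minimum or fold. With 1 library per stage, depth and stage cannot be told apart, and 2 reads is the lowest count listed.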

Other observations

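Members were spread over all 25 chromosomes, and made up 286 of the 9559 circRNAs of the whole series. The highest shares were 4.29% on chromosome 10 (14 of 326) and 4.27% on chromosome 23 (16 of 375). The lowest were 1.63% on chromosome 12 (6 of 369), 1.67% on chromosome 4 and 1.67% on chromosome 5 (9 of 538). These are extremes picked from 25 chromosomes with few members each. Whether the shares differ beyond counting error was not tested. On chromosome 4 there were 5 members of 300 circRNAs, with 187 of its 2071 junction reads.

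Of the 286 members, 109 (38.1%) shared a start or an end with some other listed circRNA, against 28.2% of the circRNAs listed in 1 to 3 libraries. With at least 20 reads it was 40.2% of members against 32.0% of the others. In 99 of the 109 members that shared an end (90.8%), the member had more reads than any other junction using its ends, and 1 was tied. The same held for 840 of the 2614 circRNAs listed in 1 to 3 libraries that shared an end (32.1%). Among those sharing an end with at least 20 reads, it held for 94.3% of members and 84.1% of the others. The rule itself favours junctions with many reads. Chromosome 1, 28003179 to 28005792, had 21, 24, 14, 34 and 45 reads from 4.5 to 72 hpf, while its 5 partners together had 18, 0, 9, 9 and 11. The order was the opposite on chromosome 3, where 62102466 to 62102688 had 12 reads and its 6 partners 94, of which 52 were at 4.5 hpf, the stage at which the member was not listed. On chromosome 24, 37086321 to 37090985 had 12 of its 21 reads at 4.5 hpf, while its 2 partners had 29 of their 45 at 72 hpf.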
